A study of Homo sapiens with 16 samples.

Results

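The comparison described here is that of SW620 cells carrying a short hairpin RNA against ATF4 (shATF4) with SW620 cells carrying a scrambled hairpin (scramble), both without drug. It uses the 6 libraries whose titles name an untreated cell of either line, 3 per line, out of 16 libraries in all. Each of the 58735 genes of the count table was eligible, and 17309 of them passed the filter on low counts and were tested.

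SW620 is an established human colorectal cancer cell line, grown here in DMEM with serum. The series asks what ATF4 does in the resistance of such cells to 5-fluorouracil (5-FU), a chemotherapy drug that resembles uracil, and it also sequenced both lines after 24 h and 48 h in 5 µM 5-FU. Both untreated groups carry a hairpin and neither received the drug. The labels name 1 knockdown line and 1 control line, so the effect of losing ATF4, any other target of the hairpin and a difference between the lines cannot be told apart. The labels do not say whether replicates came from separate cultures, so the spread behind every p-value is that of these samples and may be technical.

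ATF4 is a basic leucine zipper transcription factor. Kinases that sense unfolded protein, lack of amino acids, viral RNA or lack of heme phosphorylate the initiation factor eIF2α, which lowers protein synthesis in general but raises translation of the ATF4 message through its upstream open reading frames. ATF4 then binds DNA as a dimer with C/EBP or other leucine zipper proteins and is known to turn on genes for amino acid synthesis and uptake, tRNA charging, redox balance and, under lasting stress, cell death. In colorectal cancer cells it is known as a factor that lets cells live with little glutamine or asparagine.

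The 6 libraries held 15237106 to 17695194 counts. Levels are given as CPM, counts scaled to a common library size adjusted by TMM. Scramble replicate 2 stood apart: the mitochondrially encoded protein genes took 1.42% of its counts, against 0.764% to 0.795% in the 3 shATF4 libraries and 0.753% and 0.766% in scramble replicates 1 and 3. The summed level of the 12 listed colon epithelial markers was 11386 to 11952 CPM in shATF4 libraries and 11274 to 12676 CPM in scramble libraries. Of the 12 markers 10 were tested, and CDX1 was at 0. Summed markers of other cells were low in both groups: fibroblast markers reached 37.6 to 39.1 CPM in shATF4 and 35.8 to 45.1 CPM in scramble, leukocyte markers 4.43 to 5.87 CPM and 4.03 to 5.14 CPM, and endothelial markers 4.08 to 6.35 CPM and 4.50 to 5.02 CPM, with COL3A1, DCN, FAP, PTPRC, MS4A1 and KDR at 0.

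ATF4 itself, the gene the hairpin targets, was lower in every knockdown library than in any scramble library. The gene (ENSG00000128272) lies on the plus strand of chromosome 22, at chr22:39519695-39522685 on GRCh38. Its level was 172, 169 and 179 CPM in shATF4 libraries, against 388, 364 and 384 CPM in scramble libraries. The groups did not overlap, and no library stood out from its group. The mean was 173 ± 5.16 CPM in shATF4 and 378 ± 12.9 CPM in scramble (SD, n = 3 each), a log2 change of -1.13 ± 0.09 (SE) or 2.19-fold lower, with an adjusted p of 6.42e-08 in edgeR's quasi-likelihood test, adjusted by Benjamini-Hochberg over all 17309 genes. A gene is called below when that adjusted p was under 0.05, and rose, fell and changed are used of called genes. Scaled per kilobase of gene length, ATF4 remained at 68.8 RPKM in shATF4 cells, against 150.5 RPKM in scramble cells, so the message was reduced and not lost.

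Of the genes tested, 506 were called, which is 2.92%. Of these, 187 rose (1.08% of the genes tested) and 319 fell (1.84%). Most changes were small: the median size among called genes was 0.537 on the log2 scale, and 272 called genes changed by less than 1.5-fold, 70 of them higher and 202 lower. At 2-fold or more there were 90 called genes (0.52%), and there the balance was the other way, with 54 higher and 36 lower. The CPM of the groups did not overlap for 504 of the called genes, and they did not overlap for 19.3% of all genes tested. The median log2 change over all genes tested was -0.01. Among the called genes 479 were protein-coding, 8 were long intergenic RNAs and 8 were antisense genes. Without scramble replicate 2 the number called was 404. It was 295 without scramble replicate 1, and 327, 277 and 312 without shATF4 replicates 1, 2 and 3. It was 278 in a fit of the 6 untreated libraries with a replicate block. The number was larger, at 774, without shATF4 24 h replicate 3, a library of another group in the same fit, at 891 without that library and scramble replicate 2, and at 889 with a correction for GC content chosen after seeing the data.

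**Figure D1:**
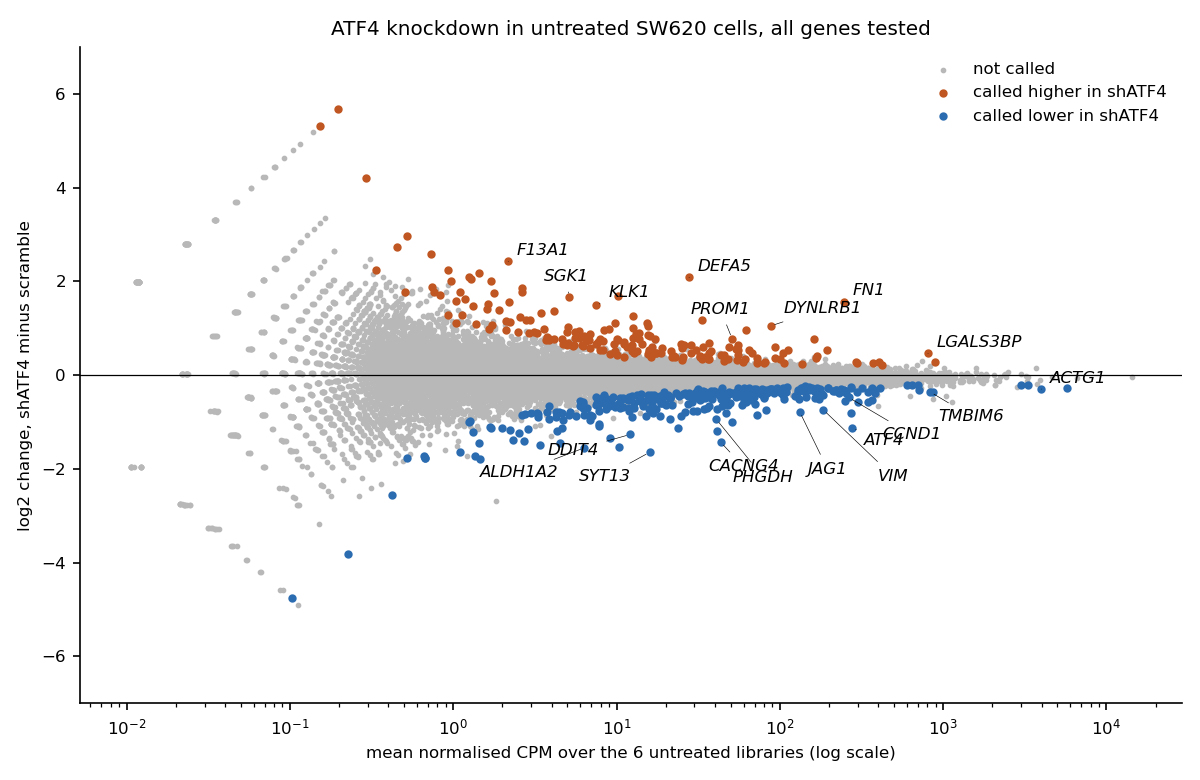
Log2 change, shATF4 minus scramble (y axis), against mean CPM over the 6 untreated libraries (x axis, log scale), 1 point per gene tested. Coloured points are the 187 genes called higher and the 319 called lower; most called genes lie close to the zero line, and the largest changes are on the higher side. Outside the plotted range lie 18 genes, 0 of them called.

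The genes with the smallest p-values other than ATF4 came from several functional classes. They included an extracellular matrix protein, a vesicle protein, an antimicrobial peptide, a Notch ligand and a subunit of a molecular motor. The smallest p was that of FN1, fibronectin, a secreted glycoprotein that assembles into fibrils and is bound by integrins. FN1 had 374, 365 and 373 CPM in shATF4 libraries, against 119.6, 132 and 123 CPM in scramble libraries. All 3 knockdown libraries were far above all 3 scramble libraries, and the log2 change was 1.57 ± 0.08 (adjusted p = 1.19e-10, edgeR's quasi-likelihood test). SYT13, a member of the synaptotagmin family of membrane-trafficking proteins, had 7.86, 7.26 and 8.09 CPM in shATF4 libraries, against 24.3, 25.4 and 22.8 CPM in scramble libraries. The groups were well apart, with a log2 change of -1.64 ± 0.11 (adjusted p = 8.87e-09, edgeR's quasi-likelihood test).

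DEFA5, the α-defensin that Paneth cells of the small intestine secrete against bacteria, had 43.7, 47.4 and 43.8 CPM in shATF4 libraries, against 10.5, 9.89 and 11.5 CPM in scramble libraries. This was a log2 change of 2.08 ± 0.15 (adjusted p = 3.06e-08, edgeR's quasi-likelihood test), the groups being 4.24-fold apart without overlap. In bulk RNA, a change in the number of cells that make a product and a change in message per cell cannot be told apart. JAG1, a membrane ligand of Notch receptors, had 96.2, 96.0 and 99.8 CPM in shATF4 libraries, against 166, 174 and 162 CPM in scramble libraries. Its groups were as cleanly separated, with a log2 change of -0.78 ± 0.06 (adjusted p = 5.88e-08, edgeR's quasi-likelihood test). DYNLRB1, a light chain of the dynein motor, had 122, 118 and 116 CPM in shATF4 libraries, against 55.2, 61.1 and 55.4 CPM in scramble libraries. The log2 change was 1.05 ± 0.08 (adjusted p = 6.42e-08, edgeR's quasi-likelihood test), with the 3 libraries of each line close together.

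**Figure D2:**
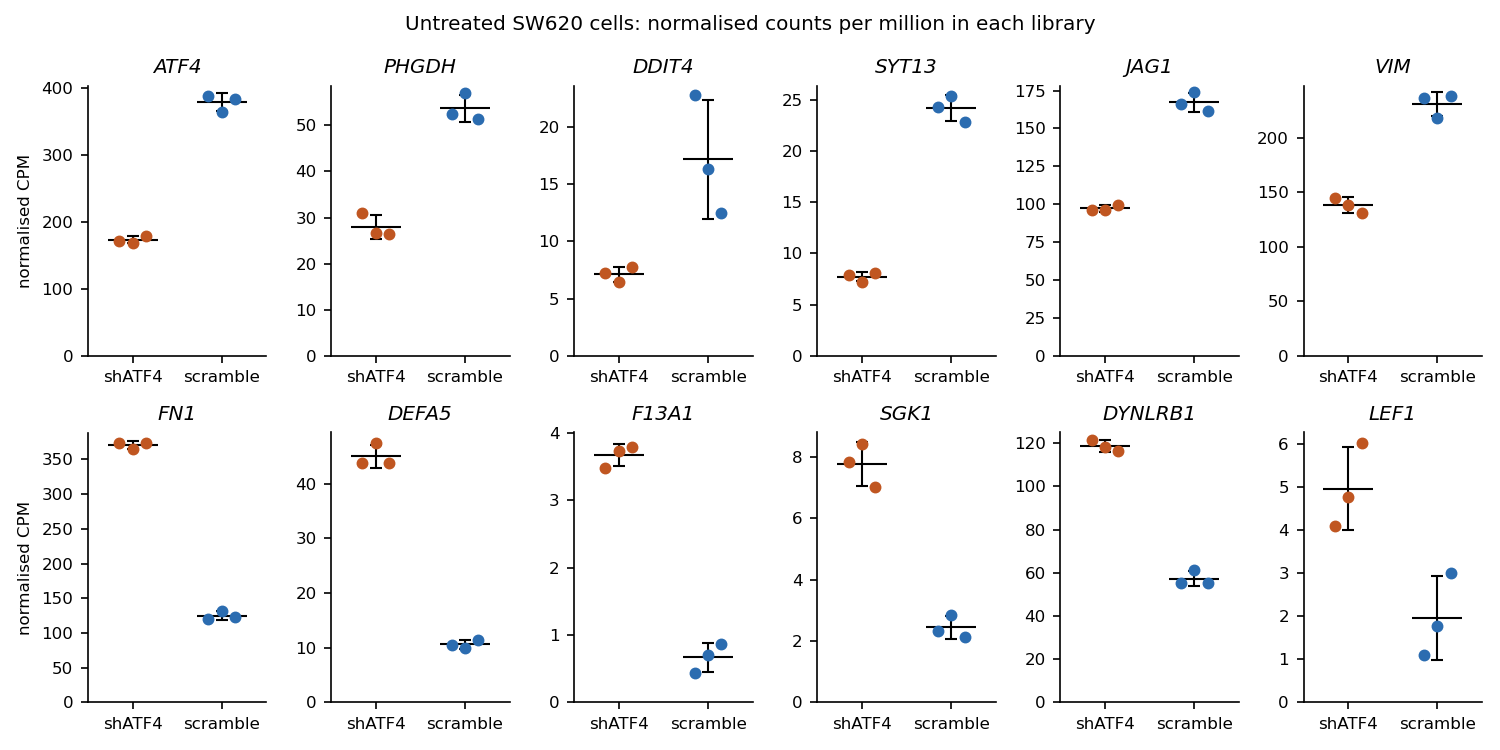
CPM in each untreated library for 12 called genes, shATF4 on the left and scramble on the right of each panel. Points are libraries and bars the mean with the SD of 3 libraries; ATF4, PHGDH, DDIT4, SYT13, JAG1 and VIM are lower in shATF4, and FN1, DEFA5, F13A1, SGK1, DYNLRB1 and LEF1 are higher, with no overlap between groups in any panel.

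Several other genes changed by more than 2-fold with non-overlapping groups. CACNG4, a regulatory subunit of calcium channels and AMPA receptors, fell to 23.5 ± 2.58 CPM in shATF4 libraries, against 63.3 ± 5.69 CPM in scramble libraries (SD, n = 3 each), a log2 change of -1.43 ± 0.11. NEBL, the actin-binding protein nebulette, fell by 1.13 on the log2 scale. FHL1, a LIM-domain protein of the cytoskeleton and nucleus, fell by 1.53, although its 3 knockdown libraries spread from 3.86 to 6.76 CPM, against a mean of 15.4 ± 0.905 CPM in scramble libraries. ALDH1A2, which makes retinoic acid from retinal, had 2.80, 3.39 and 3.51 CPM in shATF4 libraries, against 8.78, 8.56 and 11.1 CPM in scramble libraries, and its log2 change was -1.55 ± 0.17. SEMA3C, a secreted semaphorin that guides migrating cells, fell by 1.45.

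On the higher side, SGK1, a kinase induced by glucocorticoids and cell shrinkage that regulates ion transport, had 7.86, 8.44 and 7.01 CPM in shATF4 libraries, against 2.34, 2.85 and 2.14 CPM in scramble libraries. Its log2 change was 1.66 ± 0.17 (adjusted p = 3.63e-06, edgeR's quasi-likelihood test), and the lowest knockdown library was above the highest scramble library. KLK1, the tissue kallikrein that releases kinins, rose by a log2 change of 1.49 ± 0.16. LMLN, a zinc metallopeptidase, rose by 1.10 ± 0.11. GALNT9, an enzyme that starts mucin-type O-glycans, rose by 1.78 ± 0.24, and IGFBP5, a secreted binding protein for insulin-like growth factors, by 1.86 ± 0.32. These last 2 genes were rare, with means of 4.06 and 4.13 CPM in shATF4 cells, against 1.18 and 1.14 CPM in scramble cells.

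The genes with the largest differences in CPM included further secreted, membrane and mitochondrial proteins. LGALS3BP, a secreted glycoprotein that binds galectins, had 903, 951 and 953 CPM in shATF4 libraries, against 674, 726 and 637 CPM in scramble libraries, a log2 change of 0.46 ± 0.09. TMBIM6, a membrane protein of the endoplasmic reticulum that restrains cell death and calcium release, fell to 752, 712 and 729.7 CPM in shATF4 libraries, against 947, 898 and 969 CPM in scramble libraries, a log2 change of -0.36 ± 0.06. Both pairs of groups were apart without overlap. HSD17B10, a mitochondrial dehydrogenase that is also a subunit of mitochondrial RNase P, rose by 0.78 ± 0.11. The cytoskeletal actins were lower in shATF4 cells: ACTG1 fell by 0.30 ± 0.06, to a mean of 3573 CPM in shATF4 and against 4389 CPM in scramble. ACTB fell by 0.28 ± 0.06, and its call was lost without scramble replicate 2 or without any 1 of the shATF4 libraries.

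Among the known targets and partners of ATF4 the share called varied by list, against 2.92% of all genes tested. It was 5% for the core of the integrated stress response and 0% for cytosolic tRNA synthetases. It was 9.09% for secreted stress factors and for amino acid transporters, 10.5% for serine and one-carbon genes and 11.1% for brakes on mTORC1. Each share above 0% rests on 1 or 2 genes. Of the 20 tested genes that form the core of the integrated stress response (the kinases and subunits of eIF2, ATF4, its partners and its best known targets), ATF4 was the only one called by edgeR, and 0 rose, while DESeq2 called 2 lower. The median log2 change of these 20 genes was -0.06, against -0.01 over all genes, and it was 0.02 without shATF4 replicate 3. CEBPB, a leucine zipper partner of ATF4, had 17.6, 21.6 and 20.8 CPM in shATF4 libraries, against 30.3, 30.2 and 26.9 CPM in scramble libraries. The groups did not overlap, but at a log2 change of -0.54 ± 0.17 the adjusted p was 0.0907 (edgeR's quasi-likelihood test). DDIT3, which encodes the stress factor CHOP, stood at 7.98 ± 0.585 CPM in shATF4 and 5.97 ± 0.608 CPM in scramble (SD, n = 3 each) and was not called (log2 change 0.42 ± 0.15, adjusted p = 0.161, edgeR's quasi-likelihood test). TRIB3, a pseudokinase that dampens ATF4 signalling, had a log2 change of -0.23, CHAC1, which degrades glutathione, -0.23, and ATF3, a leucine zipper factor downstream of ATF4, -0.07, and none of these 3 genes was called.

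Serine and one-carbon metabolism held the clearest change in an ATF4-linked pathway, and it lay at the entry of the pathway. PHGDH, which takes 3-phosphoglycerate out of glycolysis in the opening step of serine synthesis, had 30.9, 26.6 and 26.3 CPM in shATF4 libraries, against 52.6, 56.9 and 51.4 CPM in scramble libraries. The groups were well apart, at a log2 change of -0.94 ± 0.09 (adjusted p = 1.02e-06, edgeR's quasi-likelihood test). PSAT1 and PSPH, the enzymes of the later steps, had log2 changes of -0.15 and -0.09 and were not called. Per kilobase of gene length PHGDH was the rarer message by far, at 3.03 RPKM in shATF4 and 5.82 RPKM in scramble, with PSAT1 at 96.1 RPKM in shATF4 and 107 RPKM in scramble. In the mitochondrial folate branch, SHMT2 (-0.10) and MTHFD2 (-0.09) were not called. MTHFD1L, which releases formate from 10-formyl-tetrahydrofolate in mitochondria, fell to 181, 183 and 173 CPM in shATF4 libraries, against 210.5, 217 and 224 CPM in scramble libraries, a log2 change of -0.28 ± 0.07. That call was lost without scramble replicate 1 or 3 or any 1 shATF4 library. In all, 2 of 19 tested genes of the list fell and 0 rose, with a median log2 change of -0.09.

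DDIT4, also known as REDD1, which restrains the growth kinase complex mTORC1 during stress and hypoxia, had 7.24, 6.43 and 7.73 CPM in shATF4 libraries, against 22.8, 16.3 and 12.5 CPM in scramble libraries. The knockdown libraries were close together and the scramble libraries spread widely, but without overlap, and the log2 change was -1.26 ± 0.19 (adjusted p = 0.000342, edgeR's quasi-likelihood test). An antisense gene on the opposite strand, DDIT4-AS1, covers 41.2% of the exon bases of DDIT4, and without strand information reads from both cannot be told apart. DDIT4 was the only gene called among 9 tested brakes on mTORC1, whose median was -0.02. SESN2, another of them, had a log2 change of -0.20.

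In the rest of amino acid metabolism, 2 of 19 tested genes for asparagine, proline, alanine and transsulfuration fell and 0 rose, with a median of -0.07. The share called was 10.5%, against 2.92% of all genes tested. GPT2, the mitochondrial transaminase that joins alanine and glutamate metabolism, had 249.5, 241 and 262 CPM in shATF4 libraries, against 297, 306 and 289.8 CPM in scramble libraries, a log2 change of -0.25. OAT, which links ornithine with proline and glutamate, had 159.8, 154 and 160.1 CPM in shATF4 libraries, against 198, 182 and 201 CPM in scramble libraries, a log2 change of -0.29. Both sets of groups were apart, but GPT2 needed replicates 1 and 2 of both lines to be called, and OAT needed scramble replicate 1 and shATF4 replicate 2. PYCR1 (0.07) and ALDH18A1 (0.14), of proline synthesis, were not called.

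ASNS, asparagine synthetase and a textbook target of ATF4, cannot be judged from this table. It held 12, 19 and 11 counts in shATF4 libraries and 13, 15 and 10 counts in scramble libraries. In the GENCODE annotation 44.6% of its exon bases lie under AC079781.5, a gene on the same strand, and 80.7% of its 75-base stretches also occur in another gene. Among all tested list members, 14 of 773 had more than 40% of their exon bases under another gene with at least 1 such gene on the same strand, and 0 of the 14 were called by edgeR.

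Amino acid transporters gave 2 calls among 22 tested genes, both higher, with a median of -0.01. SLC38A3, a glutamine and asparagine transporter, stood at 15.7 ± 0.929 CPM in shATF4 libraries, against 11.1 ± 1.33 CPM in scramble libraries (SD, n = 3 each), a log2 change of 0.51 whose call needed scramble replicate 1 and shATF4 replicates 1 and 3. SLC6A14, which imports neutral and basic amino acids, was rare, at 1.71 ± 0.581 CPM in shATF4 and 0.488 ± 0.176 CPM in scramble, and its call needed both scramble replicate 1 and shATF4 replicate 2. The cystine transporter SLC7A11 (-0.06) and its partner SLC3A2 (0.17) were not called. Of 20 tested cytosolic tRNA synthetases edgeR called 0, with log2 changes between -0.16 and 0.11 and a median of -0.04. At an unadjusted p under 0.05 there were 3 of them, all lower, and DESeq2 called 0. Of 26 tested chaperones and other unfolded-protein genes of the endoplasmic reticulum, edgeR and DESeq2 called 0 and 4 had an unadjusted p under 0.05. HSPA5, the chaperone BiP, had a log2 change of -0.05. Among 11 tested stress factors that cells secrete, AREG, a ligand of the EGF receptor, rose by 1.09 ± 0.21 at a mean of 1.88 CPM in shATF4 and 0.884 CPM in scramble. It was not called in either fit of the untreated libraries alone, where the adjusted p reached 0.135 (edgeR's quasi-likelihood test); over all alternatives that p began at 0.00322. GDF15 (-0.22) and STC2 (-0.23) were not called.

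**Figure D3:**
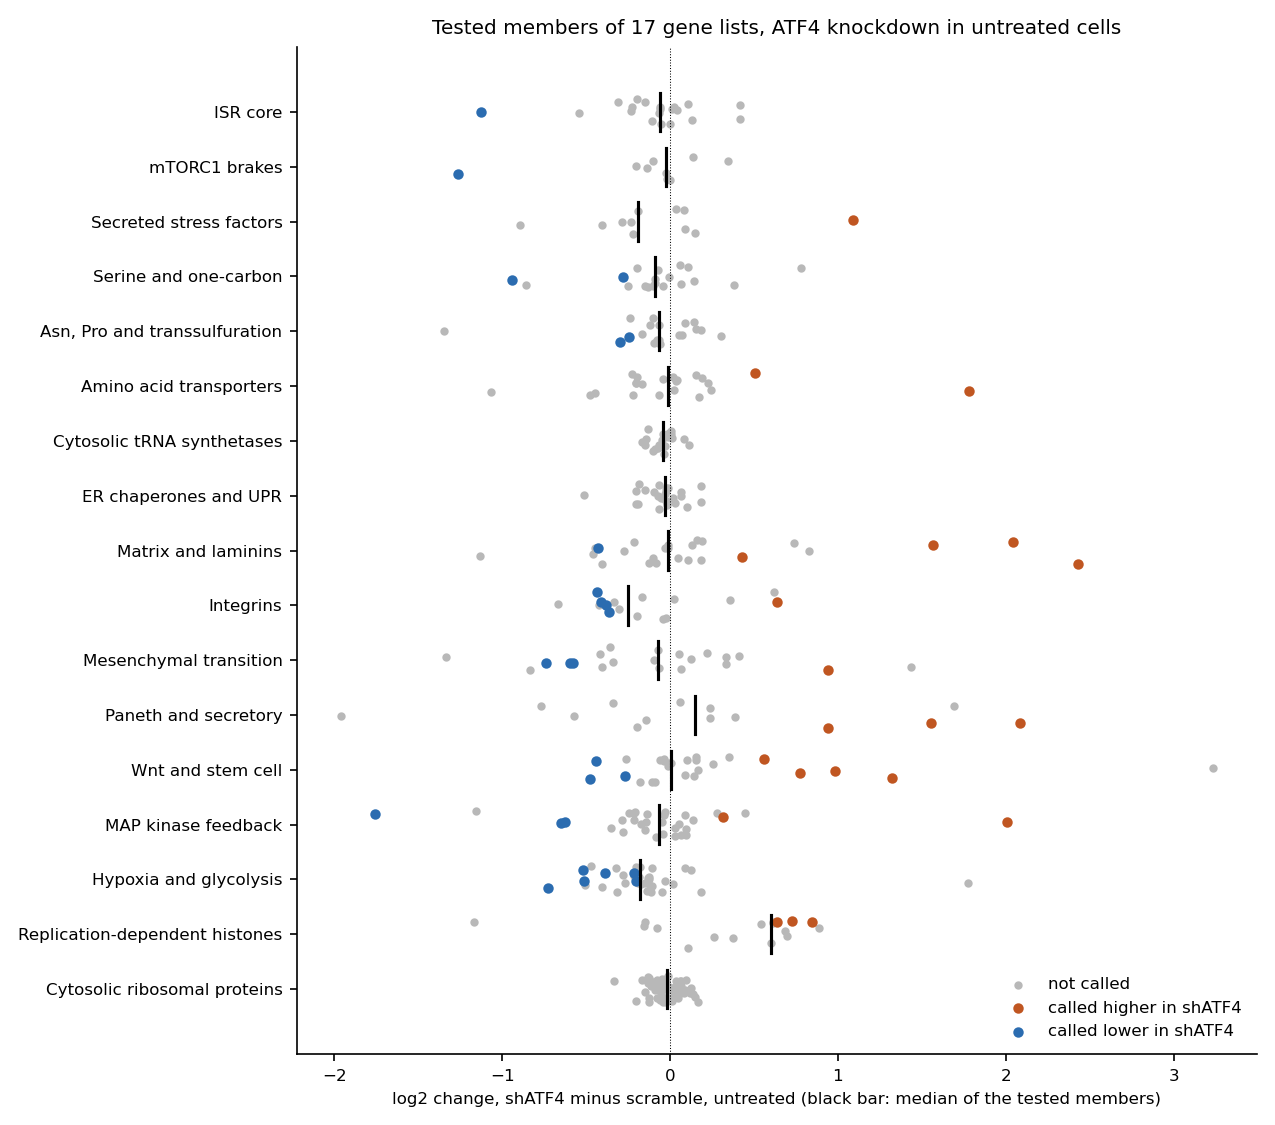
Log2 change, shATF4 minus scramble, of every tested member of 17 gene lists, 1 point per gene, with called genes coloured and a black bar at each list's median. Most medians lie within 0.25 of 0. Among these lists, those of histones and integrins have the medians farthest from it, at 0.60 and -0.25.

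The promoters of ATF4-linked genes show where its recognition sequence can lie. The core of the C/EBP-ATF response element was searched as TGATGNAA on both strands in RefSeq promoter windows of GRCh38.p14 that run from 250 bases before to 50 bases after a gene's start, 11322 of the tested genes having a window. The core was in 3.62% of all 35116 windows and in 1.69% of those of tested genes. It was in 2.21% of the windows of genes that fell (5 of 226) and in 1.56% of those of genes that rose (2 of 128). The 7 ATF4-linked lists had 120 tested members, of which 75 had a window, only 2 of them tRNA synthetases, and the core was in 13.3% of these (10 of 75). Stretches of 88 bases are shown because they hold the core in genes of those lists, with the core in capitals, each 5′ to 3′ on the gene's own strand. MTHFD1L is the only one of the 10 that fell. CHAC1, GOT1, ASNS, ATF3 and TSC2 were chosen among the other 9, which were not called, after their values were seen.

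MTHFD1L, chr6:150866317-150866404, plus strand: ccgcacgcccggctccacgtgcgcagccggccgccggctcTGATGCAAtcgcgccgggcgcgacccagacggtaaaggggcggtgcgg
CHAC1, chr15:40953222-40953309, plus strand: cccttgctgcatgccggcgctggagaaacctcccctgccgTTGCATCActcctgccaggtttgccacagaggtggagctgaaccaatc
GOT1, chr10:99430775-99430862, minus strand: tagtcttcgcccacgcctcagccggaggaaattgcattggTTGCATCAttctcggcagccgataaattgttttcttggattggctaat
ASNS, chr7:97872429-97872516, minus strand: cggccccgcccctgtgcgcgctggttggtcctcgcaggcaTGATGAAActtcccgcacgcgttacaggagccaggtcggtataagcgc
ATF3, chr1:212565176-212565263, plus strand: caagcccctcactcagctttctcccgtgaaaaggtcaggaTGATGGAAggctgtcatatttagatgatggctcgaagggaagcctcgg
TSC2, chr16:2047835-2047922, plus strand: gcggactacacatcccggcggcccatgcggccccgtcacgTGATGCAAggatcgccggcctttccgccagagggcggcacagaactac

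The core starts at position -129 from the gene's start in MTHFD1L, at -209 in CHAC1, -198 in GOT1, -68 in ASNS, -191 in ATF3 and -110 in TSC2. In CHAC1 and GOT1 the core is on the strand opposite to the one printed, so the printed strand reads TTGCATCA. The windows of PHGDH, DDIT4, OAT and ATF4 itself held neither this core nor the cAMP response element TGACGTCA, which differs from the core and was searched in the same way. TGACGTCA was in 0.885% of the windows of genes that fell (2 of 226), 3.91% of those of genes that rose (5 of 128) and 3.06% of those of all tested genes. A match is a description of the letters in the window only, and no match says nothing about sites elsewhere.

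Genes of the extracellular matrix and of its receptors changed in both directions. Of 25 tested matrix genes 4 rose and 1 fell (20% called, against 2.92% of all genes tested). Their median was -0.01, and it was 0.15 without scramble replicate 2. The largest rise among them was in F13A1, the transglutaminase subunit of coagulation factor XIII that crosslinks fibrin and fibronectin. F13A1 was rare, at 3.48, 3.73 and 3.79 CPM in shATF4 libraries, against 0.439, 0.697 and 0.871 CPM in scramble libraries. The groups were 5.38-fold apart with no overlap, a log2 change of 2.43 ± 0.27 (adjusted p = 9.61e-06, edgeR's quasi-likelihood test). Laminins, the cross-shaped proteins of basement membranes, gave calls in both directions. LAMB1 fell to 58.0 ± 2.74 CPM in shATF4 libraries, against 77.9 ± 2.78 CPM in scramble libraries (SD, n = 3 each). Its log2 change was -0.43 ± 0.07. LAMC3 rose by 2.04 but stood at only 2.08 CPM in shATF4 and 0.499 CPM in scramble, and its call needed replicate 3 of both lines. TNC, tenascin C, had a log2 change of -0.10 and was not called.

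Integrins are the receptors that tie cells to fibronectin, laminin and collagen. Of 16 tested subunits 4 fell and 1 rose (31.2% called, against 2.92% of all genes tested), with a median of -0.25. ITGA6, which pairs with β1 or β4 to bind laminin, had 355, 332 and 313 CPM in shATF4 libraries, against 428, 409.6 and 463 CPM in scramble libraries. The groups did not overlap and the log2 change of -0.38 ± 0.08 (adjusted p = 0.00519, edgeR's quasi-likelihood test) was called without any 1 of the 6 libraries. ITGB1, the β1 subunit common to most of these receptors, fell by 0.36, ITGA3, an α subunit of a laminin receptor, by 0.41, and ITGA7, another such subunit, by 0.44. These 3 calls were less firm: leaving out scramble replicate 3 or shATF4 replicate 2 or 3 undid that of ITGB1, either of scramble replicates 1 and 2 or of shATF4 replicates 2 and 3 that of ITGA3, and replicate 1 or 2 of either line that of ITGA7. ITGA1, of a collagen receptor, rose by 0.64, a call that needed replicate 1 of both lines. The number of subunits that fell was 2 without scramble replicate 1, scramble replicate 2 or shATF4 replicate 3, and 1 without shATF4 replicate 2, where 1 also rose. Of the 16 subunits 12 had a negative log2 change, against 7554 of all 13633 tested protein-coding genes.

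VIM, the intermediate filament vimentin of mesenchymal cells, fell to 145, 138 and 131 CPM in shATF4 libraries, against 236, 218 and 238 CPM in scramble libraries. The log2 change was -0.74 ± 0.09 (adjusted p = 2.02e-05, edgeR's quasi-likelihood test) without overlap, and 24.4% of the exon bases of VIM lie opposite its antisense gene. Of 21 tested genes of epithelial-mesenchymal transition 3 fell and 1 rose (19% called, against 2.92% of all genes tested). Their median was -0.07, and FN1, which rose, was listed with the matrix genes and not with these. PLAU, the urokinase plasminogen activator, fell by 0.58, a call that needed scramble replicate 1 and shATF4 replicates 1 and 3. MMP7, matrilysin, a protease that epithelial cells secrete, rose to 6.22, 9.27 and 7.59 CPM in shATF4 libraries, against 4.61, 3.23 and 4.22 CPM in scramble libraries. The junction protein CDH1 (0.05) and the epithelial surface protein EPCAM (-0.01) were not called. In the list of 10 tested colon epithelial markers edgeR called 0, with 1 at an unadjusted p under 0.05, and DESeq2 called 1.

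**Figure D4:**
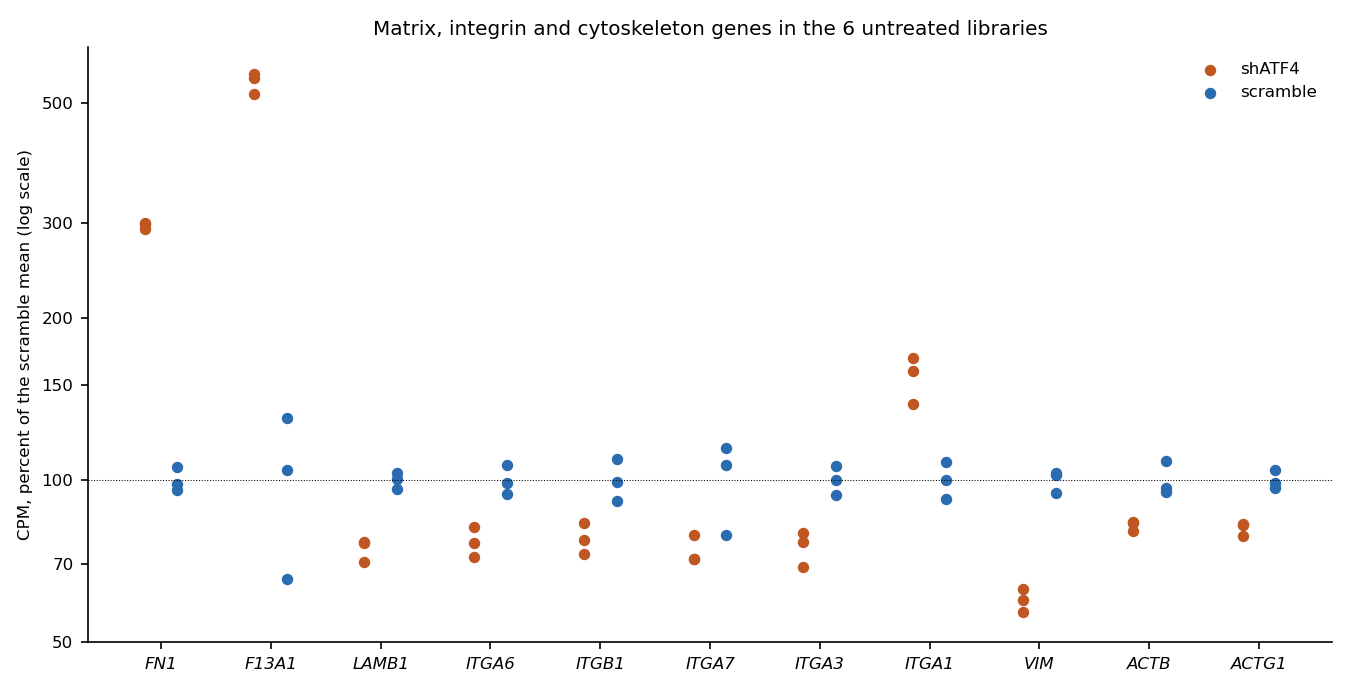
Level of 11 matrix, integrin and cytoskeleton genes in each untreated library as a percentage of the scramble mean of that gene, on a log axis, shATF4 left of scramble. FN1 and F13A1 lie well above 100% in the knockdown, VIM well below it, and the integrin subunits other than ITGA1 somewhat below it.

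Intestinal secretory genes rose where they were called. Of 14 tested genes of Paneth and other secretory cells 3 rose and 0 fell, with a median of 0.15: DEFA5, MMP7, which Paneth cells also make and which cuts α-defensin precursors in mice, and MUC5AC, a gel-forming mucin. That is 21.4% of the list called, against 2.92% of all genes tested. The log2 change was negative in 6 of the 14, against 7554 of all 13633 tested protein-coding genes. MUC5AC was rare, at 3.42, 3.80 and 2.72 CPM in shATF4 libraries, against 0.586, 1.78 and 0.938 CPM in scramble libraries, a log2 change of 1.56 ± 0.28. All 3 genes stayed called without any 1 of the 6 libraries, but the median of the list was -0.04 without shATF4 replicate 2.

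Wnt targets and stem cell genes split. Of 27 tested genes 4 rose and 3 fell (25.9% called, against 2.92% of all genes tested), with a median of 0.01. LEF1, a DNA-binding partner of β-catenin, had 4.10, 4.77 and 6.01 CPM in shATF4 libraries, against 1.10, 1.78 and 3.01 CPM in scramble libraries. The groups did not overlap although scramble replicate 3 came close, and the log2 change was 1.32 ± 0.24 (adjusted p = 0.00261, edgeR's quasi-likelihood test). The secreted Wnt inhibitor DKK1 rose by 0.98 and the membrane-bound inhibitor APCDD1 by 0.56. PROM1, which encodes the surface protein CD133, had 67.8, 62.1 and 63.3 CPM in shATF4 libraries, against 35.8, 32.1 and 44.9 CPM in scramble libraries, a log2 change of 0.78 ± 0.10. CCND1, cyclin D1, fell to 223, 226 and 213 CPM in shATF4 libraries, against 297, 319.9 and 302 CPM in scramble libraries, a log2 change of -0.47 ± 0.08. The Wnt feedback gene NKD2 fell by 0.44 and SMOC2, a matrix protein marking stem cells, by 0.27. The number that fell was 1 without scramble replicate 2 or shATF4 replicate 1 or 2, and 2 without any 1 of the other libraries. The stem cell genes LGR5 (-0.06) and ASCL2 (0.16) were not called.

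Of 32 tested outputs and feedback genes of MAP kinases 3 fell and 2 rose, with a median of -0.06. That is 15.6% called, against 2.92% of all genes tested. FOSL1, an AP-1 subunit induced by ERK, had 54.9, 54.9 and 57.5 CPM in shATF4 libraries, against 85.9, 95.6 and 76.2 CPM in scramble libraries, a log2 change of -0.62 ± 0.08. DUSP5, a phosphatase that turns off ERK in the nucleus, fell by 0.65. RASSF2, a Ras-association protein, fell by 1.76 but had only 0.300 CPM in shATF4 and 1.04 CPM in scramble on average. DUSP8, a phosphatase of JNK and p38, rose by 2.01, a call that needed replicate 3 of both lines. DUSP16, of the same kind, rose by 0.32 at an adjusted p of 0.0481 (edgeR's quasi-likelihood test), a call that only leaving out scramble replicate 2 did not undo.

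Of 36 tested glycolysis and hypoxia genes 6 fell and 0 rose (16.7% called, against 2.92% of all genes tested), and the median was -0.18. A negative log2 change was seen in 31 of the 36, against 7554 of all 13633 tested protein-coding genes. PFKP, the platelet-type phosphofructokinase of the committing step of glycolysis, had 143, 144 and 144 CPM in shATF4 libraries, against 211, 221 and 183 CPM in scramble libraries. The knockdown libraries were nearly equal and lay below every scramble library, with a log2 change of -0.51 ± 0.07 (adjusted p = 0.000138, edgeR's quasi-likelihood test). EGLN3, an oxygen-sensing hydroxylase that hypoxia induces, fell by 0.72, and BNIP3L, a mitophagy receptor, by 0.52, a call lost without shATF4 replicate 3. PFKL, the liver-type phosphofructokinase, fell by 0.39, ENO1, enolase, by 0.20, and PKM, pyruvate kinase, by 0.21, and none of these 3 calls held without scramble replicate 1 or without shATF4 replicate 1 or 2. That of PFKL also needed scramble replicate 2, that of PKM shATF4 replicate 3, and that of ENO1 replicate 3 of both lines. The number that fell was 3 without scramble replicate 1, shATF4 replicate 1 or shATF4 replicate 3, and 4 without shATF4 replicate 2.

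Genes of 5-FU metabolism and of efflux pumps changed in a few places before any drug was given. Whether these pumps carry 5-FU was not tested. UPP1, uridine phosphorylase, which converts 5-FU to its riboside, had 50.5, 51.7 and 51.2 CPM in shATF4 libraries, against 74.3, 81.7 and 68.3 CPM in scramble libraries. It was the only gene called by edgeR among 19 tested genes of 5-FU metabolism (log2 change -0.55 ± 0.07), whose median was -0.08. That is 5.26% of the list, against 2.92% of all genes tested. The list had 2 genes called lower with DESeq2, and 2 with edgeR without scramble replicate 2. TYMS, thymidylate synthase, which 5-FU blocks, had a log2 change of -0.18 and was not called. Among 11 tested efflux pumps 2 rose and 0 fell (18.2% called, against 2.92% of all genes tested), with a median of 0.06. ABCB1, P-glycoprotein, had 12.6, 13.8 and 14.4 CPM in shATF4 libraries, against 7.61, 10.1 and 8.11 CPM in scramble libraries, and ABCA3, a lipid transporter of intracellular membranes, 18.7, 21.8 and 19.5 CPM in shATF4 libraries, against 12.5, 11.5 and 9.31 CPM in scramble libraries. Their log2 changes were 0.66 ± 0.12 and 0.85 ± 0.12, and the groups did not overlap for either.

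Death, p53 and immune genes gave 2 calls or 0 per list, against 2.92% of all genes tested. The share called was 8.7% for death receptor and BCL2 genes and 8.7% for p53 targets. It was 8.33% for NF-κB and TNF genes, 7.41% for interferon-stimulated genes and 0% for MHC class I genes. TNFRSF10D, a decoy receptor for the death ligand TRAIL, rose by 0.61 and PMAIP1, the BH3-only protein NOXA, fell by 0.45, a call lost without shATF4 replicate 3; these were the calls among 23 tested death receptor and BCL2 genes. MDM2, the ubiquitin ligase of p53, rose by 0.53, a call lost without scramble replicate 1, and with PMAIP1 made up the calls among 23 tested p53 targets. Of 24 tested NF-κB and TNF genes, 2 fell and 0 rose. They were TNFRSF1A, a receptor for TNF (log2 change -0.30), and TRAF1, an adaptor of TNF receptors (-0.82). The call of TNFRSF1A needed every 1 of the 6 libraries and that of TRAF1 replicates 1 and 2 of both lines. Among 27 tested interferon-stimulated genes OAS3, an activator of RNase L, fell by 0.44 and IFITM3, a restriction factor against viruses, by 0.51.

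Several housekeeping programmes gave 0 calls with edgeR at an adjusted p under 0.05. For 72 cytosolic ribosomal protein genes the median was -0.02, with 3 at an unadjusted p under 0.05. For 28 mitosis genes it was -0.09, with 6 at an unadjusted p under 0.05, and for 29 DNA replication genes -0.08, with 7. DESeq2 called 0 ribosomal protein genes, 1 mitosis gene and 0 replication genes. A negative log2 change was seen in 27 of the replication genes and 24 of the mitosis genes, against 7554 of all 13633 tested protein-coding genes. Of 17 tested histone genes 3 rose and 0 fell (17.6% called, against 2.92% of all genes tested), and the median was 0.60. The log2 change was positive in 13 of the 17, against 6065 of all 13633 tested protein-coding genes. HIST1H2AC rose by 0.84, HIST1H2BK by 0.64 and HIST1H2BD by 0.73, the last a call that needed scramble replicate 1 and shATF4 replicate 2. The libraries were made from RNA with poly(A) tails, which most histone messages lack, so these levels cover only the tailed share.

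The mitochondrially encoded genes moved with scramble replicate 2. Their median log2 change was -0.42 over 13 genes, with MT-ND2 called lower (7.69% of them, against 2.92% of all genes tested). Without scramble replicate 2 the median was -0.04 with 0 called by edgeR. MT-ND2 had 788, 742 and 734 CPM in shATF4 libraries, against 830.4, 1198 and 882 CPM in scramble libraries, and its adjusted p was 0.0472 with all libraries and 0.23 without scramble replicate 2 (edgeR's quasi-likelihood test), and its call also needed each of the shATF4 libraries.

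The libraries from cells in 5-FU share no sample with the untreated comparison and give the same contrast again, although all groups were fitted together. The titles of 4 libraries say 48 h where their treatment tag says 24 h, and they were placed by title. ATF4 was also lower in shATF4 cells there. At 24 h it had 91.1, 109 and 130.4 CPM in shATF4 libraries, against 270.1, 285 and 280.1 CPM in scramble libraries. At 48 h it had 114 and 118 CPM in shATF4 libraries, against 331 and 333 CPM in scramble libraries. The log2 changes were -1.34 and -1.52, and neither difference from the untreated effect was called.

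Of the 506 genes called in untreated cells, 458 (90.5%) had the same sign at 24 h, where 58.4% of all tested genes did. At 24 h 322 of them were called the same way and 5 the opposite way, with 20.4% of all genes called at that time. At 48 h 392 (77.5%) had the same sign, against 55.9% of all tested genes, and 187 were called the same way and 19 the opposite way, with 9.45% of all genes called. The 322 became 202 without untreated shATF4 replicate 2, 207 without untreated scramble replicate 1, 524 without both shATF4 24 h replicate 3 and untreated scramble replicate 2, and 544 with the GC correction. The 187 became 127 without untreated shATF4 replicate 2, 294 without shATF4 24 h replicate 3, 340 without both of those libraries that stand apart, and 323 with the GC correction. The number called the same way in all 3 states was 150, of which 41 were higher and 109 lower. They included SYT13, JAG1, CCND1, DUSP5, ITGA6, PLAU and RASSF2 on the lower side and DEFA5, DYNLRB1, LEF1, PROM1, ABCB1, LGALS3BP, HSD17B10 and MDM2 on the higher side.

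**Figure D5:**
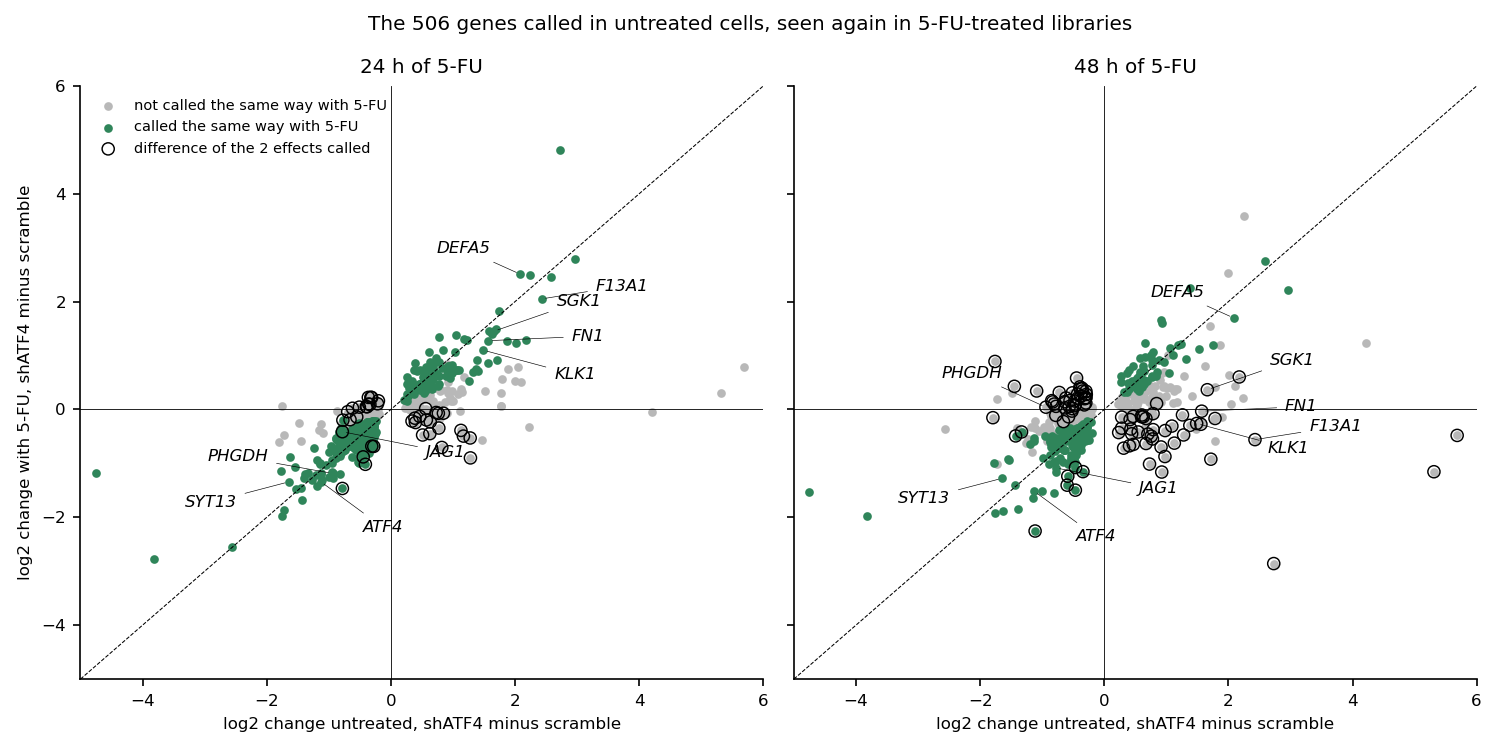
Log2 change, shATF4 minus scramble, of the 506 genes called in untreated cells: untreated on the x axis and 24 h (left) or 48 h (right) in 5-FU on the y axis, 1 point per gene. At 24 h 458 points lie in the quadrants of equal sign and at 48 h 392, with FN1 and PHGDH near 0 on the y axis at 48 h.

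For some genes the effect itself differed between states. The difference between the effect at 24 h and that in untreated cells was called for 39 of the 506 genes, where it was called for 369 of all 17309 genes (2.13%). The difference at 48 h was called for 90 of the 506, where it was called for 475 of all genes (2.74%). The 506 were chosen on the untreated effect, which each difference subtracts, so these counts cannot be set against the shares of all genes. FN1 was one of the genes whose difference at 48 h was called. At 48 h it had 93.5 and 93.6 CPM in shATF4 libraries, against 92.0 and 99.2 CPM in scramble libraries, a log2 change of -0.03 in place of 1.57. At 24 h it still stood at 323, 269 and 249 CPM in shATF4 libraries, against 112, 117 and 118 CPM in scramble libraries. PHGDH likewise had 61.3 and 67.3 CPM in shATF4 libraries at 48 h, against 61.7 and 63.2 CPM in scramble libraries, while at 24 h it had 23.6, 25.1 and 24.3 CPM in shATF4 libraries, against 50.4, 60.8 and 54.8 CPM in scramble libraries. F13A1 was on the lower side at 48 h, with 4.06 and 5.36 CPM in shATF4 libraries, against 6.42 and 7.46 CPM in scramble libraries. SYT13 stayed lower in the knockdown at levels above the untreated ones in both lines: at 48 h it had 55.4 and 55.5 CPM in shATF4 libraries, against 138.9 and 129.6 CPM in scramble libraries.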

How the data were processed

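Messenger RNA of untreated SW620 cells was selected on oligo-dT beads and sequenced, per the labels' protocols. The submitters' processing notes name featureCounts 1.5.0-p3 and the genome build GRCh38, also written hg38. The deposited counts are raw: whole numbers of reads for each gene. For the aligner, annotation and strand setting, the sources used here give no name. The authors' deposited table also holds log2 fold changes and adjusted p-values from a test that is not given there, and, per the file headers, a gene length, used here for RPKM only. The 16 FPKM columns were not used.

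In edgeR 4.0.16 (R 4.3.3), filterByExpr kept 17309 of 58735 genes, which held 99.9% of counts, and libraries were scaled by TMM. A quasi-likelihood model with 6 groups was fitted to all 16 libraries (10 residual degrees of freedom, common biological coefficient of variation 0.0847), and p-values were adjusted by Benjamini-Hochberg over all genes. Standard errors come from the F statistic. No pair of libraries agreed within sampling noise. On simulated counts with 200 genes changed 2-fold, the untreated comparison recovered 99.5% of them with 6 false calls among 16477 genes. The simulation changed only genes with more counts, gave every gene the same spread and held no library that stood apart. It checks the code and does not measure recovery or false calls in the real data. Alternatives were other scalings, filters, DESeq2 1.42.0, fits of the untreated libraries alone or with a replicate block, leaving out each library, and, chosen after seeing the data, a correction for GC content.

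Named genes are ATF4, the protein-coding genes with the largest changes, smallest p-values and largest CPM differences among those called, and the called members and opening genes of 37 lists. Other members named were picked after their values were seen, and the comparison, the lists and the rule were chosen with earlier results of these data known. Exon overlap and GC content were computed from GENCODE v29, and promoters came from RefSeq (GRCh38.p14). A few named items are not reported here.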

Additional observations from a re-analysis of the deposited data

Results flagged for a closer look

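The effect of the knockdown, as the log2 change of shATF4 minus scramble, was compared between cells in 5-FU and untreated cells, and 40 of 148 named genes differed at 24 h or 48 h by the contrast of the contrasts in edgeR's quasi-likelihood test (adjusted p under 0.05 over all genes). Of these 40, 31 were called in untreated cells. Values here are the effect in 5-FU minus the effect in untreated cells, so a negative value means that the effect lay lower in 5-FU, whether a rise was smaller or absent, had turned into a lower level, or a fall was larger.

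At 48 h the difference was called for 22 genes that were called in untreated cells. In 21 of them the effect was smaller in size at 48 h and in 17 it had the opposite sign. The genes were called on the untreated effect, which the difference subtracts. That choice favours a smaller or opposite effect at 48 h, so these counts cannot show that the effect of the knockdown faded. Among genes that rose in untreated shATF4 cells, the difference was -1.60 for FN1, -1.29 for SGK1, -1.75 for KLK1, -2.99 for F13A1, -1.95 for GALNT9 and -0.73 for HIST1H2AC. It was -1.57 for CLEC18B, a C-type lectin gene with near-identical copies, -0.71 for TNFRSF10D, -1.83 for MUC5AC, -1.37 for DKK1 and -1.40 for AREG. For PCMTD2 it was -0.42. Among genes that fell in untreated shATF4 cells, it was 0.94 for CACNG4, 0.98 for PHGDH, 0.53 for PFKP, 0.77 for PFKL and 1.04 for EGLN3. It was also 0.64 for LAMB1, 1.88 for SEMA3C, 1.64 for TMEM159, 0.42 for ACTG1 and 0.63 for OAT. The effect was larger in size at 48 h for 1 gene, OAT, which then had the opposite sign.

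At 24 h the difference was called for 9 genes called in untreated cells. It was 0.37 for JAG1, -0.54 for APCDD1, -0.92 for ABCA3, -0.87 for ITGA1 and -1.66 for GTF2IP1, a pseudogene with near-identical copies. For the glycolytic genes it was 0.32 for PKM and 0.36 for ENO1, and for MT-ND2 it was 0.59. ITGA3 was the 1 gene of the 9 with a larger effect at 24 h, with a difference of -0.61. Here too the genes were called on the untreated effect, which favours a smaller effect at 24 h, so no fading can be read from this count.

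Another 9 named genes differed in a state without being called in untreated cells. At 24 h the difference was 1.20 for MT-ND1, -2.44 for EPAS1, 0.52 for GDF15, -0.41 for CARS and 0.46 for TNFRSF10B. RPL3, a ribosomal protein gene, differed at 24 h by 0.40 and at 48 h by 0.65. At 48 h it was -0.73 for TNC, -0.69 for CDH1 and -1.24 for KRT7. For MT-ND1 and MT-ND2 scramble untreated replicate 2 was above the other libraries of its group, and its part in these differences was not tested.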

How the results depend on the processing

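With the main settings 506 genes were called. The fit of the untreated libraries alone called 424, DESeq2 625 and the fit without a filter on low counts 626, all within 1.5 times of it. Leaving out 1 untreated library gave 277 to 456. The count was 774 without shATF4 24 h replicate 3, 891 when scramble untreated replicate 2 was left out as well, and 889 with the GC correction, which kept 505 of the 506. The count of genes called at 2-fold or more was 60 to 119 over all alternatives. Of the called genes, the number called the same way at 24 h (322) was 202 to 307 without 1 untreated library, 431 without shATF4 24 h replicate 3, 524 without both libraries that stand apart and 544 with the GC correction. The number at 48 h (187) was 127 to 182 without 1 untreated library, 294 without shATF4 24 h replicate 3, 340 without both and 323 with the GC correction. The log2 change of ATF4 stayed between -1.16 and -1.11. All 94 called named genes kept their sign under every alternative, 56 kept their call under all, and 35 lost it without at least 1 of the 6 libraries. Same-numbered libraries did not deviate together (correlations of -0.02, 0.04 and -0.69 over 5000 genes). In contrast, shATF4 replicate 1 deviated with scramble replicate 3 (0.70) and shATF4 replicate 3 with scramble replicate 2 (0.62). Libraries that deviated together also had GC slopes of the same sign, so these correlations cannot tell whether same-numbered samples were handled together. With the replicate block the count was 591 in the fit of all libraries and 278 in that of the 6 untreated libraries, ATF4 standing at -1.13 and -1.12. The causes of these shifts were not tested. With 3 libraries a group, changes of genes under about 1 CPM rest on few counts.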

Other observations

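Within each group the untreated libraries differed in how their levels moved with the GC content of genes. The slope, in log2 units per 10% GC over 14275 genes, was -0.0727, 0.00848 and 0.0642 in shATF4 replicates 1, 2 and 3, against -0.0063, 0.115 and -0.108 in scramble replicates 1, 2 and 3. The group means differed in slope by -0.00615 only. These are slopes across genes, which are not independent replicates.

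The authors' deposited table of this comparison gives an adjusted p under 0.05 for 437 genes, 161 higher and 276 lower. Of these 365 were also called here, all 365 with the same sign, while 141 genes were called only here and 72 only there.

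ALDOA, an abundant glycolytic enzyme in most cells, held only 71 to 108 counts per untreated library, and 53.5% of its exon bases lie under other genes in the GENCODE annotation. As with ASNS, its level cannot be judged from this table.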
